A study of Mus musculus with 16 samples.

Results

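Purkinje cells are the sole output neurons of the cerebellar cortex, and 7 genes that mark them were followed here: Pcp2, Car8, Rgs8, Calb1, Itpr1, Ppp1r17 and Slc1a6. They were taken as a fixed list of names, and each was read as the sum of its transcripts as well as transcript by transcript. The list covers 7 of 55266 genes and 37 of the 142435 transcripts in the deposited tables, and 23 of those 37 reached at least 1 CPM (the count scaled to a common library total) in a group. Total RNA of 2 brain regions, frontal cortex and cerebellum, was sequenced from adult Upf3b-null (Upf3b-KO) mice and Ctrl littermates, and each of the 4 groups held 4 libraries. The protein of the X-linked gene Upf3b serves nonsense-mediated RNA decay (NMD), a pathway that degrades a subset of RNAs. The Upf3b-KO mice are null for the gene in the whole animal, and the labels name no treatment of either genotype. The sources used here give neither sex nor exact age. Both regions came from 4 mice of each genotype, so libraries of the 2 regions share animals, and fits across regions treat them as independent. The labels do not tie a library to an animal, so p-values measure only the spread between libraries, which may be technical.

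A Purkinje cell receives excitatory input from parallel fibres of granule cells and from climbing fibres. Through a G protein and phospholipase C, glutamate leads to the making of inositol trisphosphate (IP3), and IP3 opens the IP3 receptor to release calcium from the endoplasmic reticulum of the dendrite and its spines. Several of the 7 genes act at successive points of this route, which is needed for long-term depression of parallel fibre synapses and for motor learning. Frontal cortex has no Purkinje cells, but Calb1, Itpr1 and some of the others are also made by neurons elsewhere in the brain.

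The 15 libraries used held 27660078 to 35238677 counts each, so that 3 counts, taken as the floor, were worth 0.0851 to 0.108 CPM. Library 1 of the Upf3b-KO cerebellum held 64981 counts and was left out, except where its inclusion is named. Upf3b itself lay between 14.2 and 15.7 CPM in Ctrl frontal cortex and between 0.229 and 0.857 CPM after its loss. In cerebellum the range was 20.9 to 23.6 CPM in Ctrl and 0.617 to 0.965 CPM in Upf3b-KO. Beside the loss of Upf3b, the Upf3b-KO cerebellum had higher levels of marker genes of the brainstem, of oligodendrocytes and of the choroid plexus than Ctrl, and the Upf3b-KO frontal cortex of striatal, choroid plexus and oligodendrocyte markers, with values given beside the results they touch.

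Some sequence features bear on how the transcripts were told apart, and they are shown before the values. Itpr1 gave 2 major transcripts, Itpr1-201 and Itpr1-205, which differ by a single run of 3 coding bases on chromosome 6 (GRCm39, 108409607 to 108409609, plus strand) at the start of exon 42. Because RSEM divides reads that fit both, only reads across this place separate them. The extra bases of Itpr1-201 are in capitals, with 30 bases on each side.
Itpr1-201: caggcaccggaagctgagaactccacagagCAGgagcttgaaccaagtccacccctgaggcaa
Itpr1-205: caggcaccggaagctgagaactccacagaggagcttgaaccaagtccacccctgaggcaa

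One further Itpr1 transcript, Itpr1-213, is annotated as an NMD target. Its stop codon, in capitals below, ends an annotated coding part of 213 codons and lies 664 nt upstream of the last exon junction. A stop at least 50 nt upstream of that junction leaves an exon junction downstream (dEJ), by which candidate targets of NMD are recognised. Itpr1-213 was the single dEJ transcript among the member transcripts with an annotated stop codon, and is shown for that reason; the others could not be assessed.
Itpr1-213: gcggaaggcatctttggaggaaggaaaTGA

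Pcp2 has several annotated start sites close together on the minus strand of chromosome 8 (GRCm39). The first, at 3675545, starts Pcp2-204 and the minor Pcp2-202, Pcp2-206 and Pcp2-207. Pcp2-201 starts 263 bases further on, Pcp2-203 496 bases and Pcp2-205 543 bases. Upstream bases are shown for 3 of these starts, those of Pcp2-204, Pcp2-201 and Pcp2-203. Promoter windows came from RefSeq (GRCm38.p6) and were placed on GRCm39 by an exact match. Those shown were cut to bases outside all annotated exons of the gene. Windows existed for Pcp2, Rgs8 and Slc1a6, and those of Car8, Calb1, Itpr1 and Ppp1r17 were not analysed here. The letters AGGTCA, the half-site that ROR-alpha and other nuclear receptors bind, are in capitals where they occur on either strand. The ROR-alpha gene, Rora, is needed for Purkinje cell development.
Upstream of Pcp2-204, chr8:3675548-3675797: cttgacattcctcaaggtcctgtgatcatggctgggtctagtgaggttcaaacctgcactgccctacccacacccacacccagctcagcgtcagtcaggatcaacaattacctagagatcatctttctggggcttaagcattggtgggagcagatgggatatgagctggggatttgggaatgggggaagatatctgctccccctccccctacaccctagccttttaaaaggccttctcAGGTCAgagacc
Upstream of Pcp2-201, chr8:3675283-3675469: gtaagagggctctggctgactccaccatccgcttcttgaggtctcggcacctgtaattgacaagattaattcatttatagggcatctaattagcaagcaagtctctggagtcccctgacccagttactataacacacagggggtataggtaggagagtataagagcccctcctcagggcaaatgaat
Upstream of Pcp2-203, chr8:3675050-3675209: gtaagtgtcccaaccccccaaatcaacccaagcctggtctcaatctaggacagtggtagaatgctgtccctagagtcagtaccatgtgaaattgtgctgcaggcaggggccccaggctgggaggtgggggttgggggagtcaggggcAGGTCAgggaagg

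The motif stood once in the windows of Pcp2-204 and Pcp2-203 and not in that of Pcp2-201. The Rgs8 and Slc1a6 windows were read over their uncut 250 bases before the start. Of the 3 Rgs8 windows, the one at Rgs8-207 held it and those at Rgs8-201 and Rgs8-210 did not, nor did the Slc1a6 window. Over all 32851 RefSeq promoters, 14% held it on either strand in the 250 bases before the start. These matches are a description of the letters only.

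To describe the list, Ctrl cerebellum was compared with Ctrl frontal cortex. The genes were chosen as Purkinje cell markers, so a higher level in cerebellum was set in advance and is no check of the label. All 7 genes were higher in Ctrl cerebellum and passed the threshold used throughout, a Benjamini-Hochberg adjusted p under 0.01 in edgeR's quasi-likelihood F test over all genes tested, where 34.4% of 17521 genes were higher and 35.1% lower. Pcp2 was between 371 and 396 CPM in the 4 Ctrl cerebellar libraries and at 0.11, 0.108, 0.172 and 0 CPM in Ctrl frontal cortex, around the floor. Ppp1r17 was between 516 and 537 CPM against 0.182 to 0.31 CPM. These 2 genes therefore had almost no background in the tissue without Purkinje cells. Both passed the filter on low counts only through their level in cerebellum.

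The other 5 genes had a background in frontal cortex. Car8 was at 15.3 ± 1.47 CPM there and Slc1a6 at 5.30 ± 1.05 CPM (SD, n = 4 each), so that Ctrl cerebellum was 201-fold and 34.0-fold higher. Rgs8 was at 57.9 ± 1.36 CPM and 37.2-fold higher in cerebellum. Calb1 at 224 ± 3.32 CPM and Itpr1 at 426 ± 4.74 CPM had the highest levels in frontal cortex, and Ctrl cerebellum was 11.2-fold and 8.79-fold higher (SD, n = 4 each).

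Per annotated transcript length, in TPM (counts divided by transcript length and scaled to the same total in every library), Car8 led the list in Ctrl cerebellum at 2073 ± 19.8 TPM, followed by Pcp2 at 1927 ± 45 and Calb1 at 1531 ± 34.6 TPM (SD, n = 4 each). Itpr1 was at 1346 ± 8.91, Ppp1r17 at 745.5 ± 13.7, Rgs8 at 709.4 ± 4.85 and Slc1a6 at 216.5 ± 3.66 TPM. Neighbours in this order were further apart than the sum of their SDs, which measure only the spread between libraries. Full annotated lengths were used, with no allowance for fragment length. The abundant Pcp2 transcripts have 476 to 530 nt and Car8-201 has 3900 nt, so the order of Pcp2 and Car8 is open in both genotypes. In Upf3b-KO cerebellum, Pcp2 at 699.4 ± 5.64 and Car8 at 693.9 ± 3.92 TPM (SD, n = 3 each) did not differ beyond their spread, and Slc1a6 was again the lowest at 113.7 ± 2.61 TPM.

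Next, Upf3b-KO cerebellum was compared with Ctrl cerebellum. All 7 genes fell in Upf3b-KO, 6 of them by over 2-fold. Over all 17785 genes tested, 26.8% were lower and 28.5% higher, with a median log2 fold change of 0.008. With a fold change over 2 as well, 2.86% were lower and 10.3% higher. The list was chosen with earlier results of these data known, so its count is a description. How many of all genes had groups without overlap was not counted, so the separations given here gene by gene are descriptions too. The median log2 fold change of the 7 genes was −1.41, with a range from −1.57 to −0.92. In bulk tissue, fewer Purkinje cells in the piece and less RNA of these genes per Purkinje cell cannot be told apart.

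**Figure D1:**
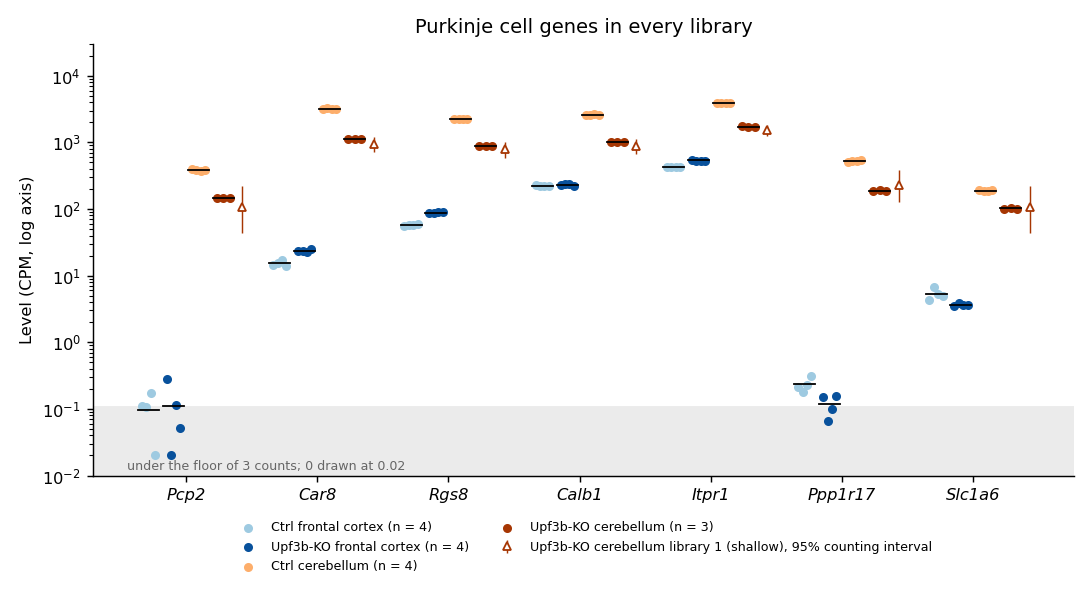
Level of the 7 Purkinje cell genes in every library, in CPM on a log axis, with a point per library and a bar at the group mean. In cerebellum all Upf3b-KO points lie below all Ctrl points, and Pcp2 and Ppp1r17 lie near the floor in frontal cortex, where values of 0 are drawn at 0.02; triangles show the shallow library with its 95% counting interval.

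The genes of calcium release and buffering are given first. Itpr1, the IP3 receptor that releases calcium from the endoplasmic reticulum (ENSMUSG00000030102, chromosome 6, 108190048 to 108528070), was at 3889, 3885, 3906 and 3893 CPM in Ctrl and at 1740, 1726 and 1710 CPM in Upf3b-KO. The 4 Ctrl values were close together, and the Upf3b-KO values were all well below them. The log2 fold change was −1.22 (SE 0.00968, adjusted p = 2.84e-24, edgeR), or 42.8% of the Ctrl level.

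Car8, a carbonic anhydrase-related protein that binds the IP3 receptor and lowers its affinity for IP3 (ENSMUSG00000041261, chromosome 4, 8141533 to 8239088), was at 3172, 3235, 3193 and 3192 CPM in Ctrl. In Upf3b-KO it was at 1118, 1109 and 1119 CPM. It fell the most of the 7, to 33.7% of Ctrl (log2 fold change −1.57, SE 0.0109, adjusted p = 4.72e-25, edgeR).

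Calb1, which encodes the calcium-buffering protein calbindin (ENSMUSG00000028222, chromosome 4, 15881155 to 15908085), was at 2542, 2620, 2655 and 2588 CPM in Ctrl and at 1001, 1015 and 1014 CPM in Upf3b-KO. The groups did not overlap, and the gene stood at 37.5% of Ctrl (log2 fold change −1.41, SE 0.0142, adjusted p = 7.65e-23, edgeR).

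The regulators of G protein signalling followed the same pattern. Pcp2, a GoLoco-domain protein that binds Gi and Go alpha subunits and is made almost solely by Purkinje cells and retinal bipolar cells (ENSMUSG00000004630, chromosome 8, 3673371 to 3675545), was at 396, 386, 371 and 388 CPM in Ctrl and at 146, 146 and 148 CPM in Upf3b-KO. No library of one genotype came near the other, and Pcp2 stood at 36.8% of Ctrl (log2 fold change −1.44, SE 0.0221, adjusted p = 3.71e-20, edgeR). Pet100, which overlaps Pcp2 on the opposite strand, was at 15.35 CPM in Ctrl and 17.68 CPM in Upf3b-KO, and whether the counting used strand is not given in the sources used here.

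Rgs8, which speeds the return of G proteins to their inactive state (ENSMUSG00000042671, chromosome 1, 153528714 to 153576069), was at 2241, 2233, 2252 and 2239 CPM in Ctrl. In Upf3b-KO it was at 898, 881 and 881 CPM. The groups were far apart, with Upf3b-KO at 38.2% of Ctrl (log2 fold change −1.39, SE 0.0114, adjusted p = 4.00e-24, edgeR).

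Ppp1r17, the G-substrate of cGMP-dependent protein kinase and an inhibitor of protein phosphatases (ENSMUSG00000002930, chromosome 6, 55989619 to 56009674), was at 516, 525, 530 and 537 CPM in Ctrl and at 186, 191 and 185 CPM in Upf3b-KO. The groups did not overlap, and the level was 34.4% of Ctrl (log2 fold change −1.54, SE 0.0191, adjusted p = 1.65e-21, edgeR).

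Slc1a6, the glutamate transporter EAAT4 of Purkinje cell dendrites and spines (ENSMUSG00000005357, chromosome 10, 78616181 to 78650614), was at 189.9, 185, 184 and 190.1 CPM in Ctrl and at 100.2, 105.3 and 101.6 CPM in Upf3b-KO. Its groups did not overlap either, but it kept more of its level than the others, 52.9% of Ctrl (log2 fold change −0.92, SE 0.0246, adjusted p = 1.42e-16, edgeR). Within a library, Slc1a6 amounted to 5.73% to 5.99% of Car8 in Ctrl and 8.96% to 9.5% in Upf3b-KO, and to 47.9% to 49.5% of Pcp2 in Ctrl and 68.5% to 72.2% in Upf3b-KO. Against Itpr1, where the shift was smallest, the ratio went from 4.7% to 4.88% up to 5.76% to 6.1%. The ratio to each of the other 6 genes was higher in every Upf3b-KO library than in every Ctrl library. Slc1a6 was singled out for its smaller fall, so these ratios restate it and are given with no test.

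Ordered by log2 fold change from the lowest, the 7 genes ranked 190th (Car8), 202nd (Ppp1r17), 248th (Pcp2), 261st (Calb1), 277th (Rgs8), 415th (Itpr1) and 855th (Slc1a6) of 17785. Many of the genes below them were scarce. Among the 2310 genes tested with at least 100 CPM in Ctrl cerebellum, Car8 ranked 3rd, Ppp1r17 4th, Pcp2 8th, Calb1 10th, Rgs8 11th, Itpr1 20th and Slc1a6 80th. The spread between libraries was small, with coefficients of variation of the 7 genes in cerebellum from 0.241% to 2.77%.

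The shallow library of the Upf3b-KO cerebellum was not used above, so it gave a separate reading, although of few counts. It held 99 counts of Itpr1, or 1524 CPM (exact 95% Poisson interval, 1240 to 1850), 61 of Car8, or 939 CPM (718 to 1210), 57 of Calb1, or 877 CPM (664 to 1140), and 51 of Rgs8, or 785 CPM (584 to 1030). Ppp1r17 had 15 counts, or 231 CPM (129 to 381), and Pcp2 and Slc1a6 had 7 counts each, or 108 CPM (43.3 to 222). For 6 of the 7 genes, the interval lay below all Ctrl libraries; for Slc1a6, it reached above them. These intervals cover counting error only.

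To see whether the fall belonged to certain isoforms, the transcripts were tested one by one. Of the 37 member transcripts, 29 passed the filter on low counts in cerebellum; 16 of these fell, 14 of them by over 2-fold, and none rose. The background was 6.22% lower and 7.78% higher of 44388 transcripts, and 1.31% lower with a fold change over 2. Members that fell included at least 1 transcript of every gene. The median log2 fold change of the 29 was −1.21.

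**Figure D2:**
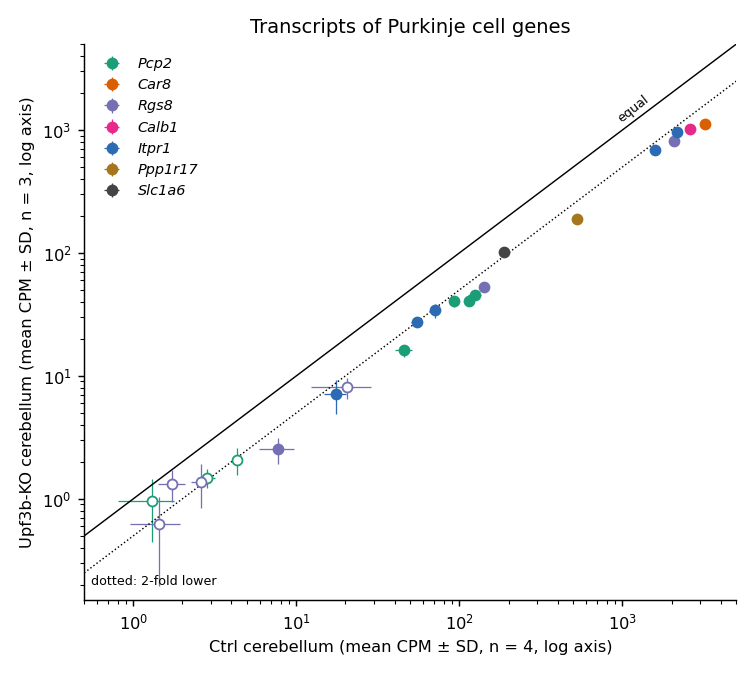
Mean level of each of the 23 member transcripts with at least 1 CPM in a group, Ctrl against Upf3b-KO cerebellum, in CPM on log axes with SDs (n = 4 and n = 3). Filled points passed the test and open ones did not; nearly all points lie close to or below the dotted line of a 2-fold fall, also the rare ones, which have the widest bars.

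Car8 and Ppp1r17 were each read from 1 transcript. Calb1-201 carried 99.97% of Calb1 in Ctrl cerebellum and Slc1a6-201 99.88% of Slc1a6, so for these 4 genes the gene and transcript results are the same measurement. Rgs8 was carried by Rgs8-202, which fell from 2064 ± 17.2 to 818.6 ± 10.8 CPM, and made up 92.1% of the gene in Ctrl and 92.36% in Upf3b-KO. Rgs8-201, with its own start, fell from 142.2 ± 4.69 to 53.09 ± 3.75 CPM (SD, n = 4 and n = 3).

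The 2 major Itpr1 transcripts shown above fell together. Itpr1-205 went from 2166 ± 38.5 to 969.6 ± 41.1 CPM (log2 fold change −1.16, adjusted p = 5.65e-07, edgeR), and Itpr1-201 from 1582 ± 33 to 685.8 ± 24 CPM (log2 fold change −1.21, adjusted p = 4.82e-07). With the shallow Upf3b-KO library included, Itpr1-205 did not pass (adjusted p = 0.017, edgeR). The share of Itpr1-201 was 40.65 ± 0.913% in Ctrl and 39.75 ± 1.7% in Upf3b-KO cerebellum, and 40.27 ± 2.02% and 40.14 ± 3.67% in frontal cortex (SD, n = 4, 3, 4 and 4). The mix of both forms thus differed by less than the spread between libraries in either tissue.

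Itpr1-213, the NMD-annotated form, went down rather than up in Upf3b-KO cerebellum. It was at 70.57 ± 3.47 CPM in Ctrl (n = 4) and 34.01 ± 4.29 CPM in Upf3b-KO (SD, n = 3), with a log2 fold change of −1.05 (SE 0.0859, adjusted p = 1.53e-04, edgeR). Scaled to the summed level of 12 granule cell genes, a scaling chosen after the data were seen, the log2 fold change was −0.21 and did not pass (adjusted p = 0.0859, edgeR). Its share of Itpr1 was 1.813% in Ctrl and 1.972% in Upf3b-KO. In frontal cortex it was at 14.27 and 16.37 CPM, and that difference did not pass (log2 fold change 0.14, adjusted p = 0.611, edgeR).

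The 4 abundant Pcp2 transcripts start at 4 different places, and each fell. They end at the same base and RSEM divides the reads they share, so their falls are not separate readings. Pcp2-201 went from 124.3 ± 12.1 to 45.42 ± 3.49 CPM, Pcp2-203 from 113.9 ± 6.85 to 40.41 ± 3.34, Pcp2-205 from 93.17 ± 1.44 to 40.35 ± 3.94 and Pcp2-204 from 45.48 ± 5.41 to 16.08 ± 1.9 CPM (SD, n = 4 and n = 3). Their log2 fold changes lay between −1.50 and −1.21, with adjusted p-values from 9.09e-06 to 1.55e-04 (edgeR). Pcp2-205, which fell the least, made up 24.19 ± 0.717% of Pcp2 in Ctrl and 27.48 ± 2.46% in Upf3b-KO. Its share was higher in all 3 Upf3b-KO libraries than in all 4 Ctrl libraries, with p = 0.0571 in a two-sided exact permutation test, the smallest that 4 against 3 libraries allow (adjusted p = 0.628 over 11 shares tested), so the test could not have passed.

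The comparison then turned to frontal cortex, where the same genes did not move as a group. Of the 5 genes that could be tested, 3 rose, 1 fell and 1 did not pass, against 23.1% higher and 20.5% lower of 18218 genes. None of them changed by over 2-fold, where the background was 9.16% higher and 1.06% lower. Pcp2 at 0.0975 and 0.111 CPM and Ppp1r17 at 0.234 and 0.117 CPM (means of Ctrl and Upf3b-KO) lay at or near the floor and were not tested.

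**Figure D3:**
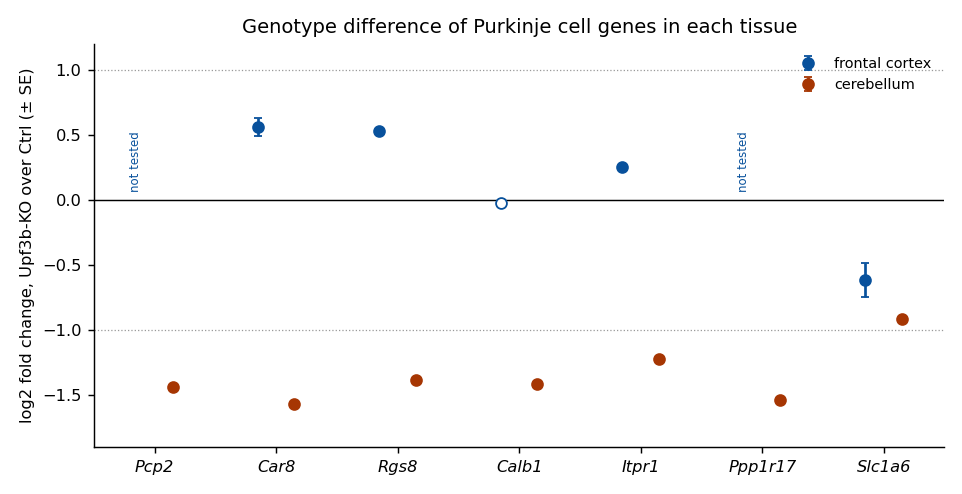
Log2 fold change of each Purkinje cell gene, Upf3b-KO over Ctrl, in frontal cortex and in cerebellum, with the SE. Filled points passed an adjusted p under 0.01, dotted lines mark a 2-fold change, and all cerebellar points lie at −0.92 or lower while the frontal cortex points lie between −0.62 and 0.56.

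Rgs8 was at 56.0, 58.3, 58.3 and 59.1 CPM in Ctrl frontal cortex and at 86.3, 86.1, 89.8 and 89.5 CPM in Upf3b-KO. All Upf3b-KO values were higher (log2 fold change 0.53, SE 0.0288, adjusted p = 1.29e-12, edgeR). Car8 was at 14.3, 15.6, 17.3 and 14.1 CPM in Ctrl and at 23.6, 23.6, 22.5 and 25.5 CPM in Upf3b-KO, again without overlap (log2 fold change 0.56, SE 0.0658, adjusted p = 2.51e-07, edgeR).

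Itpr1 was at 425, 425, 433 and 422 CPM in Ctrl and at 545, 534, 535 and 533 CPM in Upf3b-KO, a smaller rise that was also seen in every library (log2 fold change 0.26, SE 0.0142, adjusted p = 1.52e-12, edgeR). Calb1 did not pass, with 221 to 229 CPM in Ctrl and 224 to 237 CPM in Upf3b-KO. Its log2 fold change was −0.02 (SE 0.0201, adjusted p = 0.347, edgeR) and turned to 0.05 with library sizes without the 20 most abundant genes as the scaling. Slc1a6 fell, with 4.29, 6.76, 5.22 and 4.93 CPM in Ctrl and 3.54, 3.82, 3.59 and 3.61 CPM in Upf3b-KO (log2 fold change −0.62, SE 0.133, adjusted p = 4.69e-04, edgeR).

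At the transcript level, 11 member transcripts were tested in frontal cortex, and 3 rose, against 4.74% higher and 4.58% lower of 42318 transcripts. They were Rgs8-202, from 54.63 to 81.77 CPM, Car8-201, from 15.31 to 23.82 CPM, and Itpr1-205, from 236.6 to 300.3 CPM. The call of Itpr1-205 (adjusted p = 0.0084, edgeR) was lost when any of 7 of the 8 libraries was left out, with adjusted p-values of 0.0171 to 0.0303, and was kept only without Upf3b-KO library 2.

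The interaction of tissue and genotype tested whether the Upf3b-KO effect differed between the tissues. It passed for 4 of the 7 genes, all with a lower effect in cerebellum, against 18.9% lower and 19.9% higher of 19831 genes. The difference of the log2 fold changes, cerebellum minus frontal cortex, was −2.14 for Car8 (SE 0.049, adjusted p = 4.42e-22), −1.93 for Rgs8 (SE 0.0242, 1.86e-27), −1.49 for Itpr1 (SE 0.0163, 2.36e-28) and −1.40 for Calb1 (SE 0.0258, 5.45e-24; edgeR). For Slc1a6, lower in both tissues, it was −0.31 (SE 0.108, adjusted p = 0.0192) and did not pass. It did pass without Ctrl frontal cortex library 2 (−0.45, adjusted p = 8.99e-05), with DESeq2 (−0.32, adjusted p = 0.00214) and without the filter on low counts (−0.29, adjusted p = 0.0066, edgeR). Pcp2 (adjusted p = 0.0733) and Ppp1r17 (adjusted p = 0.402), at or near the floor in frontal cortex, did not pass.

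The partners of Itpr1 in the IP3 and calcium route were examined next, as a list of 18 genes. In Upf3b-KO cerebellum 17 of 18 fell, 7 by over 2-fold, with a median log2 fold change of −0.90, against 26.8% of all genes lower and 2.86% lower by over 2-fold. Among those with the smallest adjusted p was Inpp5a, a phosphatase that removes IP3, which fell from 570.2 ± 9.27 to 276.4 ± 3.37 CPM (SD, n = 4 and n = 3).

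Named after their values were seen, the calcium pump Atp2a3 fell the most of the list, from 389.9 ± 8.71 to 150.4 ± 5.84 CPM, and Ryr1, the ryanodine receptor, at 3.526 ± 2.39 and 2.979 ± 0.846 CPM, was the one that did not pass (adjusted p = 0.55, edgeR; SD, n = 4 and n = 3). The broadly expressed G protein subunit gene Gnaq fell less, from 149.3 ± 3.6 to 120.8 ± 0.76 CPM. In frontal cortex 6 of the 18 rose, 4 fell and 8 did not pass, with a median log2 fold change of 0.05, against 23.1% higher and 20.5% lower of all genes.

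Of 14 other genes of Purkinje cell identity and GABA synthesis, 12 fell in Upf3b-KO cerebellum, 5 by over 2-fold, 1 rose and 1 did not pass, against 26.8% lower, 2.86% lower by over 2-fold and 28.5% higher of all genes, and the median log2 fold change was −0.90. Dner, a Notch ligand of Purkinje cells, fell from 1191 ± 8.86 to 640.5 ± 7.16 CPM, Pcp4, a calmodulin-binding peptide, from 855.8 ± 9.93 to 429.1 ± 10.1, and Rora from 497.7 ± 3.87 to 267.7 ± 7.37 CPM (SD, n = 4 and n = 3). With the granule cell scaling Rora did not pass (log2 fold change −0.05, adjusted p = 0.0139, edgeR). Aldoc, which marks alternating bands of Purkinje cells and is also made by astrocytes, rose from 2273 ± 34.6 to 2664 ± 20.3 CPM. Slc32a1, the vesicular GABA transporter of all inhibitory neurons, was at 65.21 ± 0.633 and 64.16 ± 3.47 CPM and did not pass (adjusted p = 0.075, edgeR), and was named after its value was seen. In frontal cortex 3 of the 11 that were tested rose and 2 fell, against 23.1% and 20.5% of all genes.

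Markers of other cell types moved in the same libraries. All 12 granule cell genes fell in Upf3b-KO cerebellum, 5 by over 2-fold, with a median log2 fold change of −0.96, against 26.8% lower and 2.86% lower by over 2-fold of all genes. Their summed level was 5190 to 5208 CPM in Ctrl and 2888 to 2905 CPM in Upf3b-KO. Neurod1 fell from 555.8 ± 7.68 to 255.1 ± 2.91, Cbln3 from 1837 ± 2.34 to 1001 ± 11.9, and Gabra6 from 747.2 ± 7.15 to 389.2 ± 4.44 CPM (SD, n = 4 and n = 3). Purkinje cell and granule cell genes thus fell in the same libraries, with medians of −1.41 and −0.96. The lists of the calcium route and of other Purkinje cell identity genes had medians of −0.90 each, above the granule cell median.

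**Figure D4:**
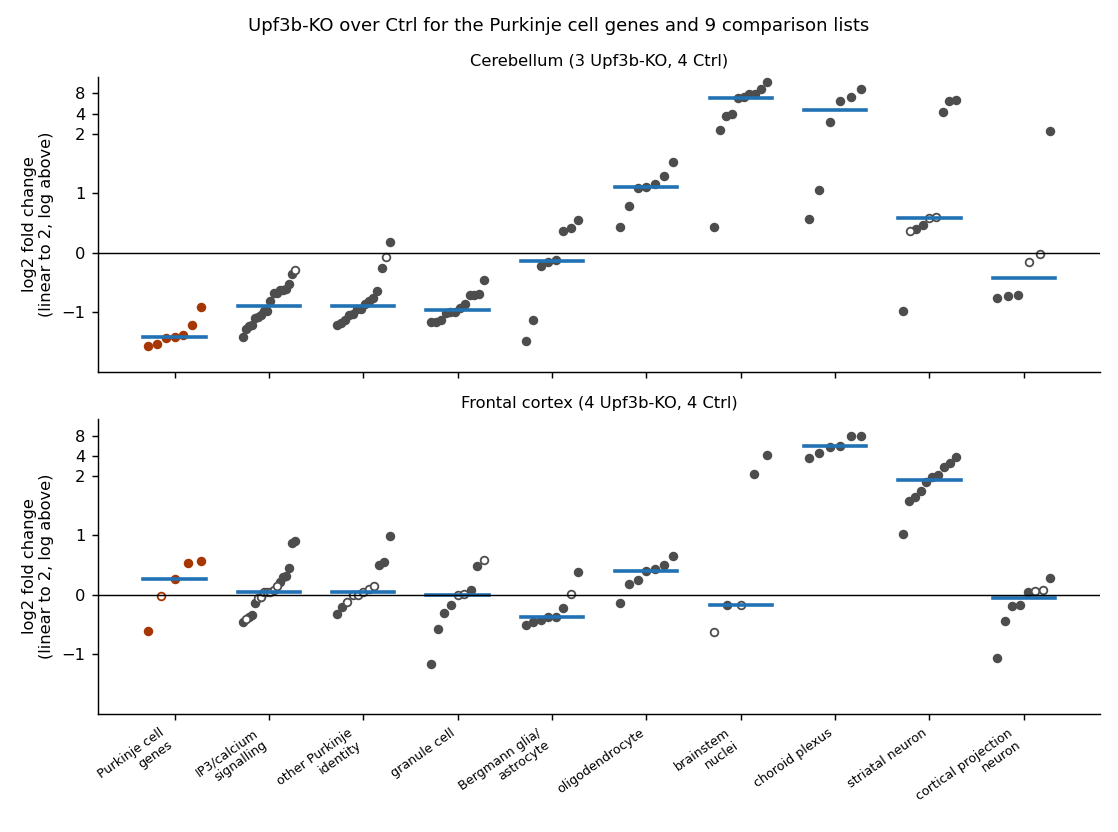
Log2 fold change, Upf3b-KO over Ctrl, of every tested gene of the Purkinje cell list (red) and of 9 comparison lists, in cerebellum (top) and frontal cortex (bottom), on an axis that is linear up to 2 and logarithmic above. Filled points passed the test, blue bars are medians, and in cerebellum the Purkinje cell median of −1.41 is the lowest of the 10. That list was chosen with earlier results known, and the 2 other Purkinje-related lists both have medians of −0.90. Fold changes of genes at or near 0 CPM in Ctrl, as in most of the brainstem list, are fitted values without an exact size.

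To compare both on one base, each gene was divided by the summed level of the 12 granule cell genes in its library, a scaling chosen after the data were seen. On this base Car8 stood at 0.626 of its Ctrl level, Ppp1r17 at 0.639, Pcp2 at 0.684, Calb1 at 0.697, Rgs8 at 0.71 and Itpr1 at 0.796. Slc1a6 stood at 0.982, with overlapping groups. A fit scaled in this way moved the median log2 fold change of all genes from 0.008 to 0.902, so that 83% of the genes were higher and 1.48% lower. The same 6 genes stayed lower, with log2 fold changes from −0.67 for Car8 to −0.33 for Itpr1 and adjusted p-values of at most 2.84e-14 (edgeR), whereas Slc1a6 at −0.03 (SE 0.0254, adjusted p = 0.352) did not pass.

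**Figure D5:**
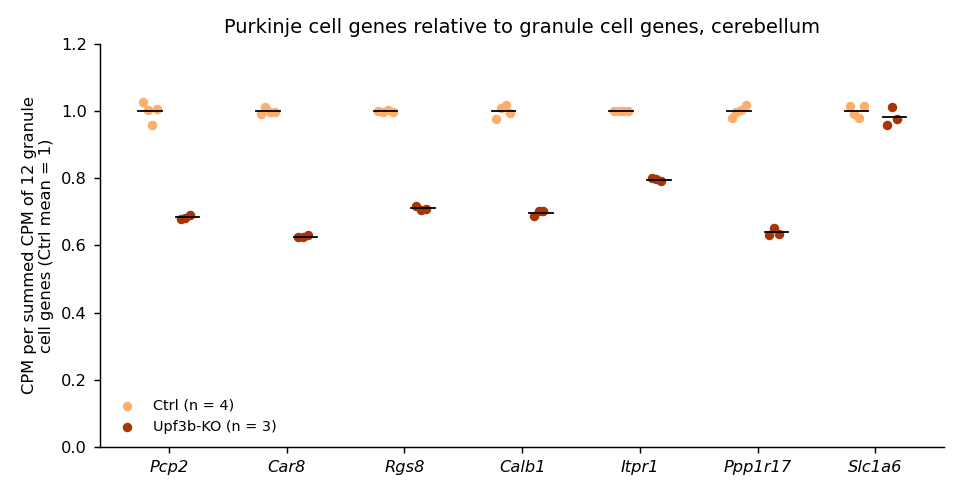
Level of each Purkinje cell gene per summed level of 12 granule cell genes in the same cerebellar library, set to 1 for the Ctrl mean, with a point per library and a bar at the mean (n = 4 and n = 3). The Upf3b-KO means lie between 0.626 and 0.796 for 6 genes and at 0.982 for Slc1a6.

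Markers of the brainstem, of oligodendrocytes and of the choroid plexus went the opposite way. All 10 brainstem genes rose in Upf3b-KO cerebellum, against 28.5% of all genes higher. Their summed level was 56.22 to 58.64 CPM in Ctrl and 467.1 to 479.1 CPM in Upf3b-KO. Slc17a6, a vesicular glutamate transporter, rose from 9.361 ± 0.482 to 156 ± 1.13, Slc6a5, a glycine transporter, from 35.01 ± 1.08 to 175.6 ± 2.15, and the choline transporter gene Slc5a7 from 0.2208 ± 0.075 to 54.24 ± 2.46 CPM (SD, n = 4 and n = 3). In Ctrl cerebellum 7 of the 10 were under 1 CPM, and Chat, which defines cholinergic neurons, was at 0 in all 4 libraries, so no median fold change is given for the list.

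All 7 oligodendrocyte genes rose, from a summed level of 6324 to 6443 CPM in Ctrl to 14590 to 14700 CPM in Upf3b-KO, and examples by rule were Mobp, from 1052 to 3135, and Mbp, from 2659 to 5818 CPM (group means). All 6 choroid plexus genes rose, from 31.29 to 35.62 up to 1370 to 1391 CPM in sum, among them Ttr from 2.054 to 1209, Kl from 1.076 to 77.03 and Kcnj13 from 3.442 to 27.99 CPM. All 3 lists rose in the same 3 libraries in which the Purkinje cell genes fell. The background in cerebellum was 28.5% of all genes higher, and 10.3% higher by over 2-fold.

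Bergmann glia, which wrap the Purkinje cell dendrites, and other astrocytes gave a mixed result, with 5 of 8 genes lower and 3 higher, against 26.8% and 28.5% of all genes. Gdf10, a marker of Bergmann glia, fell from 262.5 ± 4.75 to 97.3 ± 2.45, and the glutamate transporter gene Slc1a3 from 2755 ± 15.7 to 1297 ± 9.97 CPM, while Gfap rose from 166.6 ± 2.11 to 229.8 ± 1.23, Slc1a2 from 323 ± 3.67 to 428.9 ± 2.74 and Fabp7 from 38.06 ± 2.09 to 57.76 ± 3.29 CPM (SD, n = 4 and n = 3). Septin4 fell from 508.8 to 474.5 CPM, a direction that flips with the granule cell scaling, which shifts all genes upward by more than this fall. The part of these other cell types in the fall of the Purkinje cell genes was not tested, and the makeup of the dissected tissue and the genotype cannot be told apart here.

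Other cell type lists also moved in frontal cortex. All 10 striatal genes rose, each by over 2-fold, from a summed level of 204.7 to 220.5 CPM in Ctrl to 961.2 to 974.5 CPM in Upf3b-KO. Over all genes tested in frontal cortex, 23.1% were higher, and 9.16% were higher by over 2-fold. Penk rose from 37.31 to 249.9, Ppp1r1b from 67.64 to 297.7 and Pde10a from 43.59 to 170.9 CPM (group means). All 6 choroid plexus genes rose, from 20.42 to 21.62 up to 2146 to 2199 CPM in sum, with Ttr from 7.937 to 1848, Kl from 7.715 to 165.8 and Clic6 from 1.258 to 65.18 CPM.

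Of the 7 oligodendrocyte genes, 6 rose and 1 fell in frontal cortex, from a summed level of 7793 to 7882 CPM in Ctrl to 10450 to 10520 CPM in Upf3b-KO, with Mobp from 1564 to 2342 CPM. Of the 8 Bergmann glia and astrocyte genes, 6 fell, 1 rose and 1 did not pass. Their summed level went from 3770 to 3822 CPM in Ctrl to 3055 to 3091 CPM in Upf3b-KO, with Slc1a3 from 1455 to 1080 CPM. For both lists the background was 23.1% of all genes higher and 20.5% lower.

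Of the 8 cortical projection neuron genes, 2 rose (Cux2 and Camk2a), 4 fell, among them Fezf2 from 33.22 to 16.76 CPM, Neurod6 and Slc17a7, and 2 did not pass, against 23.1% higher and 20.5% lower of all genes. Their summed level was 4101 to 4198 CPM in Ctrl and 4222 to 4276 CPM in Upf3b-KO. The rise of Rgs8, Car8 and Itpr1 in frontal cortex occurred in the same 4 libraries as the rise of the striatal genes, and as the changes of the choroid plexus, oligodendrocyte and astrocyte genes, and the part of these in it was not tested. In Upf3b-KO cerebellum 5 of 9 tested striatal genes rose and 1 fell (Ppp1r1b, from 242.7 to 126.8 CPM), with Tac1, Drd2 and Penk rising, and of 6 tested cortical genes 1 rose (Bcl11b) and 3 fell (Slc17a7, Camk2a and Neurod6), against 28.5% higher and 26.8% lower of all genes.

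Finally, genes with the most similar pattern were sought among 9938 genes with at least 10 CPM in Ctrl cerebellum, by Pearson's r of log2(CPM + 1) with the mean of the 7 genes. Over the 15 libraries the 10 closest were Gria4, Lhfpl6, Barhl2, Nrk, Plekhd1, Zfp385c, Aplp2, Snrk, Hes3 and Csdc2, all with r of at least 0.9992. Nrk was at 85.98 CPM in Ctrl and 34.11 CPM in Upf3b-KO cerebellum and 0.01449 CPM in Ctrl frontal cortex, and Barhl2 at 45.05, 19.88 and 0.05209 CPM (group means). Within the 7 cerebellar libraries the 10 closest were Dgkg, Stk17b, Slc1a3, Ywhah, Zbtb18, Diras2, Gpm6b, Cbln3, Anp32e and Gad1, of which Slc1a3, Cbln3 and Gad1 also stand on the Bergmann glia, granule cell and other Purkinje cell identity lists.

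These coefficients describe groups of libraries more than libraries. As many as 268 genes exceeded an r of 0.99 over the 15 libraries and 899 over the 7. Over the 7, any gene that is steady within both groups and lower in Upf3b-KO comes close to 1. Over the 15, its differences between the 4 groups must also be in proportion to those of the 7 genes. The libraries share depth and scaling by total counts, and no p is given.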

How the data were processed

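The authors deposited expected counts for each Ensembl transcript, estimated with RSEM after aligning read pairs to GRCm39 (STAR 2.5.2b per the labels); they are not scaled for depth or length. RSEM divides shared reads among isoforms and similar sequences. RNA was rRNA-depleted and libraries were made with a SMART-Seq kit. Of 142435 transcripts, 141102 matched GENCODE vM39 (GRCm39), which gave symbols, lengths and coordinates, and 1333 were left out of gene sums.

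Expected counts were rounded, filtered (filterByExpr, minimum count 10, minimum total 15), scaled by TMM and tested with edgeR 4.0.16 (quasi-likelihood F test, Benjamini-Hochberg over all features; R 4.3.3, limma 3.58.1). The SE is the absolute log2 fold change over the square root of F. A feature passed at an adjusted p under 0.01, whatever its fold change; the study also asked for a 2-fold change. Groups came from sample titles. CPM uses library totals; TPM uses annotated lengths. Library 1 of the Upf3b-KO cerebellum (64981 counts) was left out. Fits were tested on simulated counts first.

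The member genes and lists were chosen with earlier results of these data known. Named were all 7 genes, member transcripts with at least 1 CPM in a group, and up to 3 genes per list and direction with the smallest adjusted p; Chat, Gnaq and those marked in the text were named after their values were seen; some list genes that the rule names are not reported here. Same-numbered libraries did not deviate together (r from −0.107 to 0.119 over 14 pairs), so numbers do not pair samples. Replicates differed by more than counting noise (mean variance 2.74 to 3.79 times it over 21 pairs), so none was taken for a repeat deposit of another. Alternatives were DESeq2 1.42.0, median-of-ratios scaling, library sizes without the 20 most abundant features, other filters and thresholds, unrounded counts, a replicate block, one fit of all 15 libraries, the shallow library included, each library left out, and, added after seeing the data, scaling to the granule cell list.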

Additional observations from a re-analysis of the deposited data

Results flagged for a closer look

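For 4 genes the Upf3b-KO effect differed between the tissues by the interaction test, in log2 units of cerebellum minus frontal cortex: Car8 (−2.14), Rgs8 (−1.93), Calb1 (−1.40) and Itpr1 (−1.49). Car8, Rgs8 and Itpr1 rose in Upf3b-KO frontal cortex, beside striatal, choroid plexus and oligodendrocyte markers, and fell in Upf3b-KO cerebellum, beside a rise of brainstem and oligodendrocyte markers, while Calb1 did not pass in frontal cortex. The part of these markers was not tested.

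Some single libraries stood apart from the other 3 of their group, by Dixon's ratio of the gap to the range of the group. Itpr1 was at 544.7 CPM in Upf3b-KO frontal cortex library 1, above 532.9 to 534.6 CPM in the others. Itpr1-213 was at 75.74 CPM in Ctrl cerebellum library 4, above 68.25 to 69.3 CPM. Pcp2-202 was at 2.019 CPM in Ctrl cerebellum library 2, above 0.9637 to 1.11 CPM. Itpr1-208 was at 0.6424 CPM in Upf3b-KO frontal cortex library 2, below 1.191 to 1.266 CPM. Chance gives about 2.5 such cases in the 50 groups of at least 1 CPM that were examined, and 4 were seen.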

How the results depend on the processing

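The 7 genes were lower in Upf3b-KO cerebellum under the alternatives tried, except that 6 passed with a 2-fold limit or scaled to the granule cell list (without Slc1a6). In frontal cortex genes, 3 higher and 1 lower became 0 and 0 with the 2-fold limit. The limit took the genes passing from 7950 to 1861 (frontal cortex), 9820 to 2339 (cerebellum), 7709 to 1864 (interaction) and 12166 to 4402 (Ctrl tissues), and the transcripts from 3944 to 1362 (members higher 0) and 6214 to 2113. Transcripts passing were 6920 and 10028 at an adjusted p under 0.05 (frontal cortex, 1 member lower) and 7964 and 11434 with DESeq2 (1 member lower). The replicate block gave 1521 (1 member higher, Car8-201 at an adjusted p of 0.0288 and Itpr1-205 at 0.0187 no longer passing) and 1640 transcripts (12 members lower in place of 16, without Itpr1-206, 0.0758, Itpr1-208, 0.0145, Itpr1-213, 0.0105, and Rgs8-204, 0.0478), and changed no gene call of a member. In cerebellum, 1745 transcripts passed with the shallow library (13 members lower, without Itpr1-205, Itpr1-206 and Rgs8-204), and 4043 to 5027 with a library left out, when 14 or 15 member transcripts fell; without Upf3b-KO library 2, 3 or 4 the numbers were 4136, 4043 and 4076. Granule cell scaling gave 15020 genes and 16785 transcripts (11 members lower, without Itpr1-206, Itpr1-208, Itpr1-213, Rgs8-204 and Slc1a6-201), left Rora (adjusted p = 0.0139) and Cbln3 (0.0155) not passing and turned Septin4 (0.74), Slc17a7 (0.18), Camk2a (0.17), Neurod6 (0.13), Pcp2-202 (0.40) and Rgs8-208 (0.44). In frontal cortex Calb1 (0.0454) and Calb1-201 (0.0425) turned with library sizes without the 20 most abundant features. With a library left out, Calb1-201 ranged from −0.0221 to 0.0079 (positive without Upf3b-KO library 4) and Itpr1-206 from −0.162 to 0.195 (negative without Upf3b-KO library 2). Depth limits Pcp2 and Ppp1r17 in frontal cortex, at or near the floor. In cerebellum Itpr1-206 lost its call (adjusted p 0.0118 to 0.0257) without any library but Upf3b-KO 3, and Rgs8-204 (0.0106 to 0.022) without Ctrl 1 or 2 or Upf3b-KO 3 or 4, while Rgs8-203 passed without Ctrl 1 (0.00278), as it did in frontal cortex without Ctrl 3 (0.00876). The causes were not tested.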
